A study of Mus musculus with 8 samples.

Results

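The complement system was examined through 30 listed genes: its cascade proteins, its main regulators and its anaphylatoxin receptors. Members were matched to the probes of the array by current gene symbol, assigned to probes through Entrez IDs where these matched. The name of 1 member, C1s, was a synonym and was matched as C1s1. All 30 had a probe, 49 probes in all, and 29 genes with 47 probes were measured well enough to be tested, out of 16495 genes tested on the array. The samples were liver RNA of female NFS/sld mice. The Tx group (4 arrays) was thymectomised on day 3 of life, a procedure that serves as a model of primary Sjögren's syndrome in this strain, and the liver was taken 8 weeks after surgery. The nonTx group (4 arrays) came from female NFS/sld mice without thymectomy, for which the labels give neither an age nor a sham operation. The protocol describes 4 independent replicates per group but not whether an array is 1 animal, and p-values here reflect only the spread among these 8 arrays.

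Complement is a cascade of plasma proteins that marks and kills microbes. It starts by the classical route (C1q on antibody), the lectin route (mannose-binding lectins and ficolins on sugars) or the alternative route (spontaneous turnover of C3). The routes meet at the cleavage of C3 and end in C5 to C9, which form a pore called the membrane attack complex. Hepatocytes secrete most of these proteins, whereas C1q comes mainly from macrophages, in liver the Kupffer cells. Since whole liver was used, fewer cells of a type and less RNA per cell cannot be told apart.

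Signal values below are the background-subtracted signal of a probe divided by the 75th percentile of its array, so that 1 is the level of that percentile. They compare arrays for 1 probe and not one gene with another. Each array had 51.1% to 57.1% of its probes well above background, and precision is limited by the number of arrays. All 10 hepatocyte markers, albumin among them, were measured as a check of the liver label and had summed signals of 4455 to 5108 in Tx and 4746 to 5178 in nonTx. All arrays lay on 1 slide, Tx in one column of it and nonTx in the other, so slide position and group cannot be told apart. The replicate number equalled the slide row in both groups, so a pattern by replicate number and one by row cannot be told apart either.

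By limma with Benjamini-Hochberg adjustment, 0 of the 29 tested complement genes passed an adjusted p of 0.05, as did 0% of all genes. At an unadjusted p under 0.05 there were 7 complement genes, 6 of them higher and 1 lower in Tx, against 13.9% of all genes tested (8.65% higher and 5.25% lower). The 6 were C8b and C8a of the pore, the lectin route genes Fcna, Mbl1 and Masp2, and the regulator C4bp. The 1 lower gene was C3ar1. The median log2 difference (Tx minus nonTx) was 0.09, with 21 genes (72.4%) higher and 8 lower, beside a median of 0.03 over all genes tested, 56.3% of which were higher. Most complement genes are bright in liver, and the brightest 10% of all genes tested had a median of 0.15, with 387 of 1650 genes at an unadjusted p under 0.05. The complement median therefore lay 0.06 above that of all genes and -0.06 from that of the bright genes on the log2 scale.

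**Figure D1:**
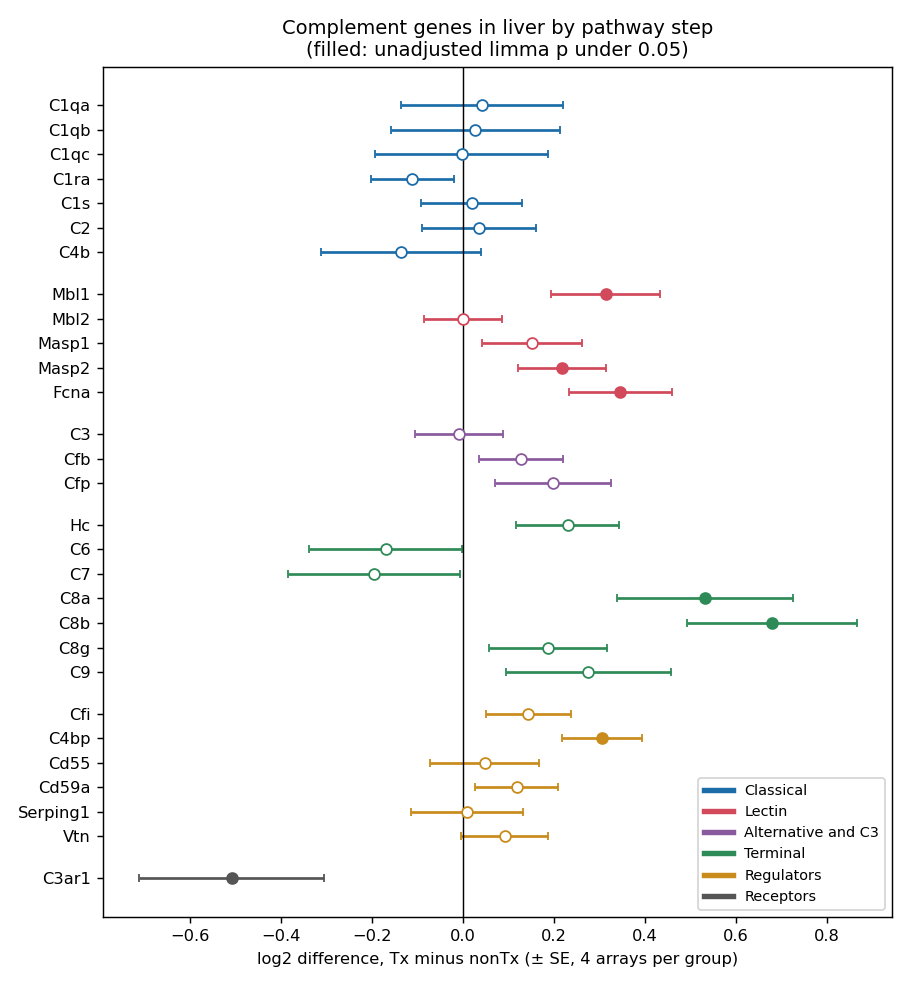
Log2 difference (Tx minus nonTx, ± SE from limma, 4 arrays per group) of each of the 29 tested complement genes on its brightest tested probe, coloured by pathway step. The classical genes sit around 0, C8b and C8a lie farthest to the right at 0.68 and 0.53, and C3ar1 farthest to the left at -0.51.

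C8b and C8a had the highest log2 differences of the listed genes. C8 is built of an alpha and a beta chain, encoded by the neighbouring genes C8a and C8b on chromosome 4, and a gamma chain encoded by C8g on chromosome 2. It binds the growing pore and inserts it into the membrane. Promoter windows are shown for C8a and C8b, which had the highest differences. That of C4bp is shown too, since its Tx and nonTx arrays did not overlap on its brightest probe. The sequences run 5′ to 3′ from 250 bases before to 50 bases after the annotated start (RefSeq, GRCm38.p6). Capitals mark GTTAAT, or its reverse complement ATTAAC, a half-site of the hepatocyte factor HNF1.
C8a promoter (chr4:104876349-104876648, - strand): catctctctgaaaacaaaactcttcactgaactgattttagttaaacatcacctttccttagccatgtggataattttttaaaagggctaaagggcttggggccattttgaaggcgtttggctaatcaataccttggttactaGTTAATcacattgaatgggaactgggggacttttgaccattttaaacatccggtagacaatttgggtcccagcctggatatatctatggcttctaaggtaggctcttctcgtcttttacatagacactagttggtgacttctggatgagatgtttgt
C8b promoter (chr4:104766067-104766366, + strand): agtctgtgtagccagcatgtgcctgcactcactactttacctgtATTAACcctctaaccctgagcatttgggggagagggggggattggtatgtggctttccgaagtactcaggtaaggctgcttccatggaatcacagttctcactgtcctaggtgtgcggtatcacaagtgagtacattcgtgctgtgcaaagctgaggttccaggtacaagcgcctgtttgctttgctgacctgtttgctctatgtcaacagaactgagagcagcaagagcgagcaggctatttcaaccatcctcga
C4bp promoter (chr1:130661569-130661868, - strand): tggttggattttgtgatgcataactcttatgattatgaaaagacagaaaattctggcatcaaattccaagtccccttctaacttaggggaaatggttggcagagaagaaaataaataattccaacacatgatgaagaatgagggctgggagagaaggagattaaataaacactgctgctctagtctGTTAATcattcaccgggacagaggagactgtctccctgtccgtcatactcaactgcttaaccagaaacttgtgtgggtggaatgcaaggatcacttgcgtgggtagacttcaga
The match began 107 bases before the start in C8a, 206 before it in C8b and 64 before it in C4bp. The other genes with an unadjusted limma p under 0.05 were Mbl1, Masp2, Fcna and C3ar1. Their windows are not shown and hold no GTTAAT, so the windows shown do not stand for all genes under that p.

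C8b had signals of 26.8, 20.3, 28.0 and 33.6 in Tx replicates 1 to 4, against 17.2, 22.7, 13.1 and 15.3 in nonTx replicates 1 to 4. Of the Tx arrays, 3 lay above every nonTx array, and Tx replicate 2 lay below nonTx replicate 2. The difference was 1.60-fold (log2 0.68 ± 0.19, SE, 95% interval 0.26 to 1.09), with an unadjusted limma p of 0.00462 and an adjusted p of 0.283. The second C8b probe differed by 0.56 ± 0.20. The authors' deposited table gives a log2 difference of 0.68 for the first of these probes.

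C8a had signals of 36.6, 22.0, 31.8 and 32.2 in Tx, against 26.2, 23.7, 20.2 and 15.1 in nonTx. Here too Tx replicate 2 was the low array of its group, and the other 3 Tx arrays lay above all nonTx arrays. The log2 difference was 0.53 ± 0.19 (1.45-fold, limma adjusted p = 0.328), and 0.49 ± 0.21 on its second probe. C8g, whose chain belongs to the lipocalin family, had 382, 491, 507 and 553 in Tx and 432, 419, 362 and 479 in nonTx. Here too 3 Tx arrays lay above all nonTx arrays, with Tx replicate 1 the low one, and the log2 difference was 0.19 ± 0.13 (adjusted p = 0.516).

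**Figure D2:**
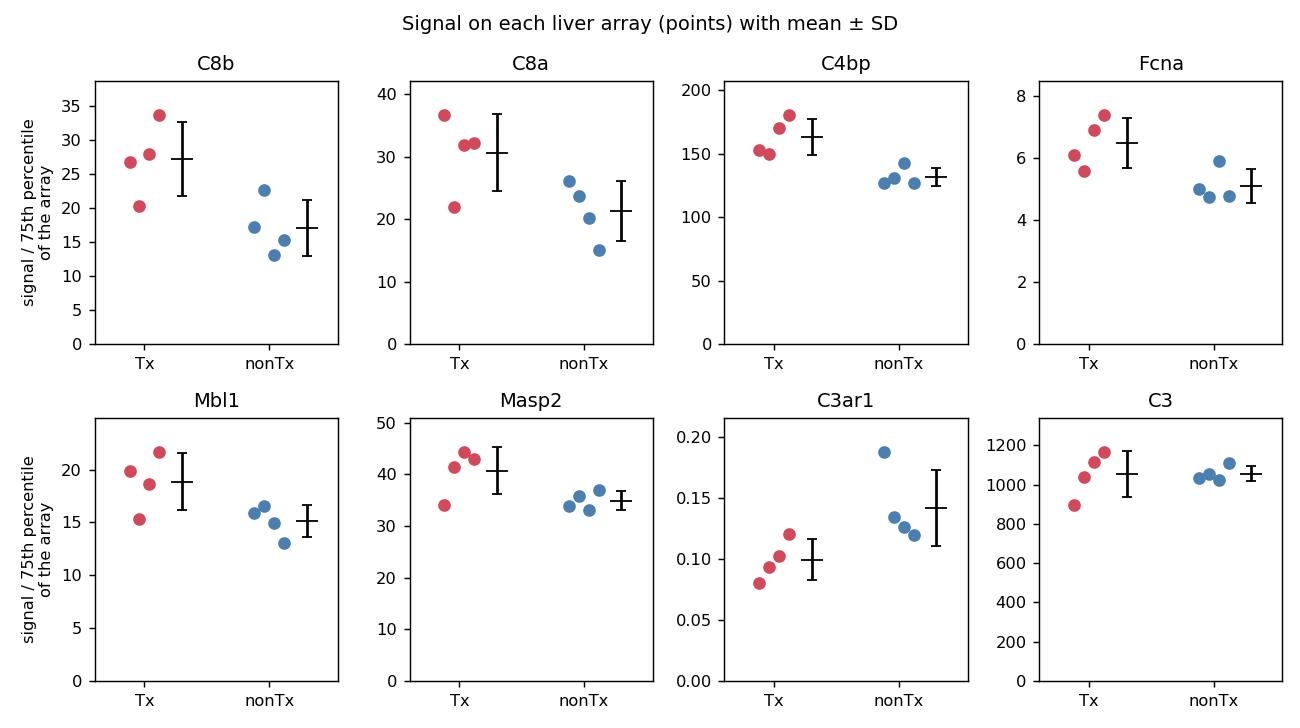
Signal of each array (points, left Tx, right nonTx, replicates 1 to 4 from left to right) relative to the 75th percentile of the array, with mean ± SD (n = 4), for the 7 complement genes with an unadjusted p under 0.05 and for C3. For C8b and C8a 3 of 4 Tx arrays stand above all nonTx arrays, for C4bp all 4 do, and for C3 the groups overlap.

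The other genes of the terminal step went both ways. Hc, the mouse gene of C5, had 62.1, 60.0, 49.3 and 69.8 in Tx and 54.8, 48.7, 46.5 and 54.7 in nonTx. Of the Tx arrays 3 stood above all nonTx arrays, with a log2 difference of 0.23 ± 0.11 (95% interval -0.02 to 0.48). C9, whose copies form the wall of the pore, differed by 0.28 ± 0.18, with nonTx replicate 3 low at 42.3 against 67.2 to 81.5 on the other nonTx arrays. Without that array the difference was 0.07. C6 and C7, which join C5b before C8, differed by -0.17 ± 0.17 and -0.20 ± 0.19. Of the 7 terminal genes 5 were higher and 2 lower in Tx, with a median of 0.23, which was 0.11 without nonTx replicate 3.

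The lectin route had 4 of 5 genes higher in Tx and a median of 0.22. Fcna encodes ficolin A, a soluble sugar-binding starter of the route. It had 6.12, 5.59, 6.93 and 7.39 in Tx, against 5.01, 4.76, 5.91 and 4.77 in nonTx. Only Tx replicate 2 lay within the nonTx range, and the difference was 1.27-fold (log2 0.35 ± 0.11, limma adjusted p = 0.313). Mbl1, which encodes mannose-binding lectin A, had 19.9, 15.4, 18.6 and 21.7 in Tx and 15.9, 16.6, 14.9 and 13.1 in nonTx. Its Tx replicate 2 again lay within the nonTx range, and the log2 difference was 0.31 ± 0.12 (adjusted p = 0.339). Mbl2, the gene of mannose-binding lectin C, averaged 433 ± 39.7 in Tx and 432 ± 10.3 in nonTx (SD, n = 4 each), a log2 difference of -0.00066 with a 95% interval from -0.19 to 0.19.

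The lectin route proteases cleave C4 and C2 once a lectin has bound. Masp2 had 34.1, 41.5, 44.3 and 43.0 in Tx and 33.8, 35.9, 33.1 and 37.0 in nonTx, so that all but Tx replicate 1 stood above the nonTx arrays. Its log2 difference was 0.22 ± 0.10 (limma adjusted p = 0.375), and its 3 probes ran from 0.10 to 0.22. The array annotation gives transcript variant 2 for the brightest probe and for another at 0.20 ± 0.10. The Masp2 probe annotated to transcript variant 1 gave 0.10 ± 0.11 (limma adjusted p = 0.697). Masp1 was measured by 5 probes, 4 with positive differences, and its brightest gave 0.15 ± 0.11. The exception is described in the array annotation as MASP-3, a product of the same gene that in mice activates the alternative route protease factor D. It had 2.77, 3.90, 2.57 and 3.62 in Tx, against 5.68, 4.54, 3.24 and 4.02 in nonTx. This probe was lower on average in Tx with overlapping groups, at a log2 difference of -0.43 ± 0.19 (limma adjusted p = 0.366), while a dim Masp1 probe, at 0.0721 to 0.132 in Tx and 0.0645 to 0.0904 in nonTx, gave 0.47 ± 0.23.

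**Figure D3:**
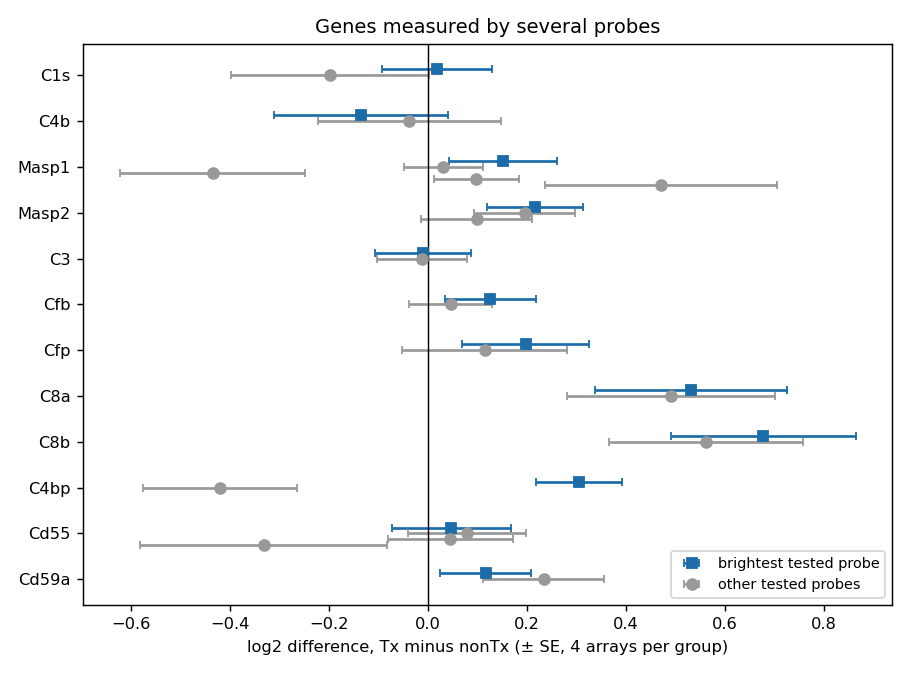
Log2 difference (Tx minus nonTx, ± SE, 4 arrays per group) of every tested probe of the 12 genes with several tested probes; squares are the brightest probe, circles the others. The probes of C8a and C8b lie together on the right, whereas C4bp and Masp1 each have a probe near -0.4.

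Several probes existed for 12 genes, and in 8 of them all tested probes had the same sign. C4bp was among the 4 with both signs. It encodes the alpha chain of C4b-binding protein, a plasma regulator that speeds the decay of the classical and lectin C3 convertase. On its bright probe it had 153, 149.9, 170 and 180 in Tx, against 127, 131, 143 and 127 in nonTx. It was the 1 complement gene with all Tx arrays above all nonTx arrays, which was the case for 5.11% of all genes. No complement gene had all Tx arrays below all nonTx arrays, as 2.94% of all genes had, and 8.05% of all genes showed no overlap in either direction. The log2 difference was 0.31 ± 0.09 (1.24-fold, unadjusted p = 0.00571, limma adjusted p = 0.290). The second C4bp probe, designed on another transcript, was dim, at 0.518, 0.362, 0.349 and 0.325 in Tx and 0.553, 0.463, 0.492 and 0.538 in nonTx. Its log2 difference was -0.42 ± 0.16 (adjusted p = 0.334), so the mean over both probes was -0.057. In C1s and Cd55 the probe that was lower in Tx was also the dimmest of the gene.

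The other regulators had small positive differences. Cfi, the protease factor I that cuts C3b and C4b, had 253, 239.8, 237 and 291 in Tx and 249, 234, 211 and 229.9 in nonTx. The groups overlapped, and the log2 difference was 0.14 ± 0.09. Cd59a, which blocks the pore on host cells, differed by 0.12 ± 0.09, and Vtn, vitronectin, by 0.09 ± 0.10. Serping1, the C1 inhibitor, and Cd55, which dismantles convertases on host cells, differed by 0.0092 ± 0.12 and 0.05 ± 0.12. All 6 regulators were higher in Tx on their brightest probe, with a median of 0.10, which was -0.03 when arrays were scaled to their brightest 10% of probes.

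Genes of the classical route differed little between the groups. Their 7 log2 differences ran from -0.14 to 0.04 with a median of 0.02, and 0 of them had an unadjusted p under 0.05. C1qa, C1qb and C1qc encode the 3 chains of C1q and lie side by side on chromosome 4. C1qa had 9.55, 14.4, 12.4 and 12.3 in Tx, against 8.60, 12.1, 11.7 and 15.5 in nonTx. C1qb had 5.05, 8.00, 6.33 and 6.71 in Tx and 4.54, 6.51, 6.60 and 8.14 in nonTx, and C1qc had 19.5, 35.7, 24.9 and 25.8 in Tx and 20.2, 26.8, 25.3 and 33.0 in nonTx. In each chain replicate 1 was the lowest array of both groups, and Tx replicate 2 and nonTx replicate 4 were the highest. The log2 differences were 0.04 ± 0.18, 0.03 ± 0.18 and -0.0033 ± 0.19. Their 95% intervals reached as low as -0.43 and as high as 0.44. With 4 arrays per group, differences inside the interval of each gene were not excluded.

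The spread of C1q between arrays was seen alongside that of macrophage and interferon gamma genes. The median log2 deviation of the C1q chains from their mean over the 8 arrays was -0.34, 0.33, -0.01 and 0.05 in Tx replicates 1 to 4 and -0.46, 0.03, -0.03 and 0.35 in nonTx replicates 1 to 4. That of 10 Kupffer cell markers, all tested, was -0.25, 0.29, 0.11 and 0.04 in Tx and -0.28, -0.06, 1.7e-05 and 0.22 in nonTx. These markers had summed signals of 140 to 209.7 in Tx and 147 to 189.6 in nonTx, with 8 of 10 higher in Tx and a median difference of 0.07. That of 12 interferon gamma response genes was -0.96, 1.07, -0.61 and -0.72 in Tx and -0.65, 0.36, 0.27 and 1.08 in nonTx. The same 2 arrays, Tx replicate 2 and nonTx replicate 4, thus had the highest medians of their groups in all of these lists. Single markers could differ: Cd163, a Kupffer cell marker, was highest on replicate 1 (1.45 in Tx, 1.02 in nonTx). It was lowest on replicate 2 (0.726 in Tx, 0.609 in nonTx). The part of either list in the C1q values was not tested.

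**Figure D4:**
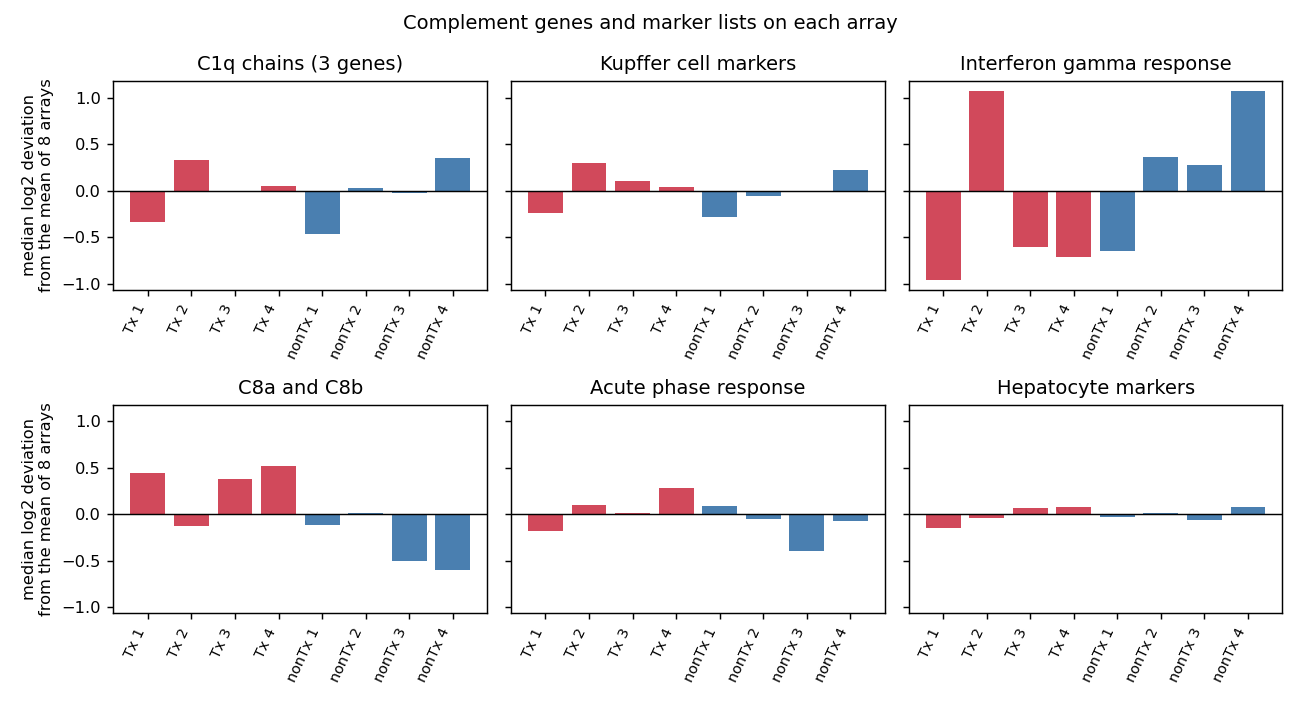
Median log2 deviation from the mean of the 8 arrays, for the C1q chains, C8a with C8b, and 4 marker lists (bars, one per array; Tx arrays left, nonTx arrays right). The medians of the C1q chains and Kupffer cell markers share their highest and lowest array in each group. C8a with C8b are low on Tx replicate 2 (-0.13) and nonTx replicate 4 (-0.60), where interferon gamma response genes are high (1.07 and 1.08). They are also low on nonTx replicates 1 (-0.12) and 3 (-0.50), where those genes stand at -0.65 and 0.27. A relation between these lists was not tested.

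The remaining classical genes encode the C1 proteases and their substrates. C1ra, the protease C1r, had 45.5, 51.0, 42.8 and 41.6 in Tx, against 47.3, 47.5, 46.3 and 54.3 in nonTx. Of the Tx arrays 3 stood below all nonTx arrays, with a log2 difference of -0.11 ± 0.09 (adjusted p = 0.579). C4b, which supplies the convertase with C4, had 206, 278, 158 and 231 in Tx and 254, 211, 198 and 286 in nonTx, a difference of -0.14 ± 0.18 with overlapping groups. C1s and C2 differed by 0.02 ± 0.11 and 0.04 ± 0.13. C1ra, C1s and C4b have near copies in the mouse (C1rb, C1s2 and C4a), and a probe may pick up both; these copies differed by -0.0083, 0.013 and -0.06.

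C3, the hub of the cascade, and the alternative route showed no large difference. C3 had 894, 1041, 1114 and 1166 in Tx, against 1035, 1052, 1023 and 1111 in nonTx. The Tx arrays lay on both sides of the nonTx range, the log2 difference was -0.0087 ± 0.10 (95% interval -0.22 to 0.21), and its second probe gave -0.012. Cfb, the factor B that forms the alternative convertase, had 290.4, 299.5, 316 and 349 in Tx and 289.7, 272, 267 and 320.3 in nonTx, a difference of 0.13 ± 0.09. Cfp, properdin, which stabilises that convertase, had 19.2, 24.8, 22.4 and 23.2 in Tx and 17.9, 17.5, 18.3 and 24.8 in nonTx. Of the nonTx arrays, replicate 4 alone reached the Tx range, and the log2 difference was 0.20 ± 0.13 (adjusted p = 0.491).

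Of the receptors for the released fragments, C3ar1, which binds C3a on myeloid cells, was dim but above background on all arrays. It had 0.0805, 0.0935, 0.102 and 0.121 in Tx, against 0.187, 0.134, 0.126 and 0.119 in nonTx. Of the Tx arrays 3 stood below all nonTx arrays, and nonTx replicate 1 was the highest of all 8. The log2 difference was -0.51 ± 0.20 (1.42-fold lower, limma adjusted p = 0.352), and it shrank to -0.10 with normexp background correction, which adds an offset of 50 to each signal. C5ar1, the C5a receptor, was well above background on only 1 Tx and 2 nonTx arrays and was not tested.

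**Figure D5:**
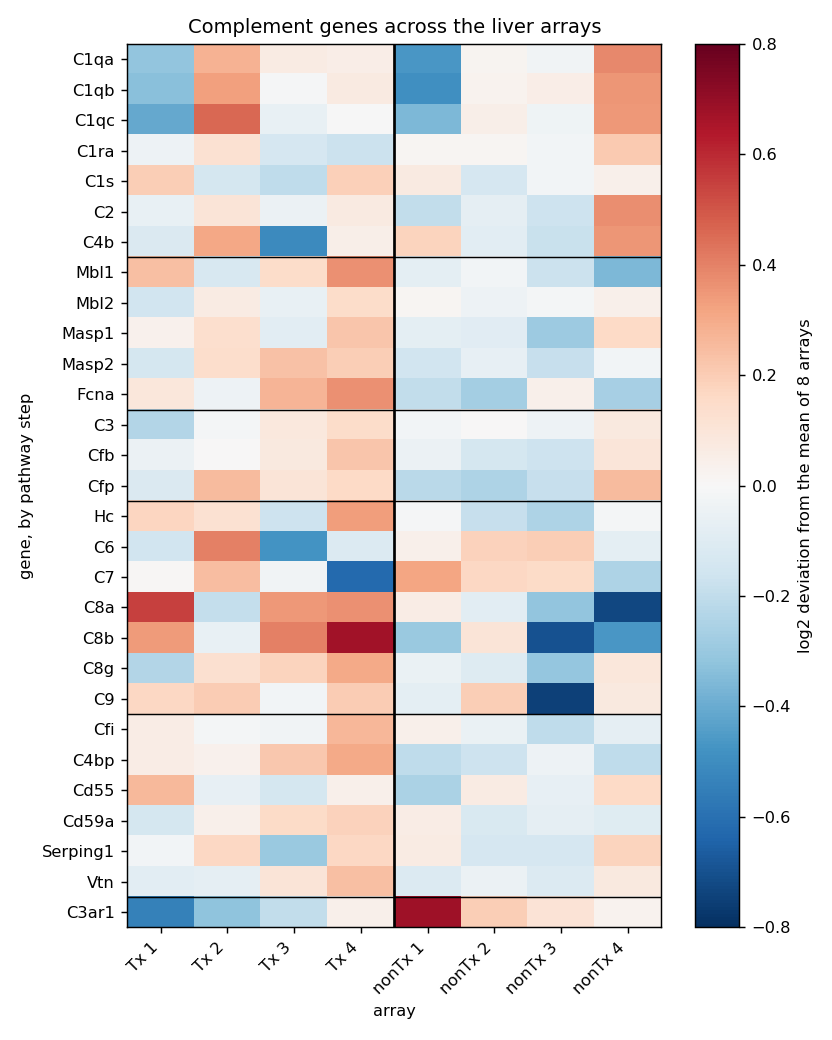
Log2 deviation of each tested complement gene (rows, by pathway step) from its mean over the 8 arrays (columns, Tx left of the line, nonTx right of it); red is above and blue below the mean. C8a and C8b are red on 3 Tx arrays and blue on nonTx replicates 3 and 4, while the C1q chains are blue on replicate 1 and red on Tx replicate 2 and nonTx replicate 4.

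The acute phase response, in which hepatocytes raise secreted defence proteins including several of complement, was described on the same arrays. Of its 14 tested genes 12 (85.7%) were higher in Tx, beside 85.8% of the brightest 10% of genes. The median of their log2 differences was 0.21, with 1 gene, Orm1, at an unadjusted p under 0.05 (0.34 ± 0.13), beside 13.9% of all genes. The median deviation of the list was -0.18, 0.10, 0.02 and 0.28 in Tx and 0.09, -0.06, -0.39 and -0.07 in nonTx. C8a with C8b stood at 0.44, -0.13, 0.37 and 0.52 in Tx and -0.12, 0.0098, -0.50 and -0.60 in nonTx. Both were highest on Tx replicate 4 and lowest or near lowest on nonTx replicate 3. They had opposite signs on Tx replicates 1 and 2 and nonTx replicates 1 and 2, with both near 0 on nonTx replicate 2. On nonTx replicate 4 the C8 pair was the lower. The part of the acute phase response in the C8a and C8b values was not tested. Hepatocyte markers had a median difference of -0.0029 over 10 genes, 5 higher and 5 lower in Tx. Among them, Ttr had all Tx arrays below all nonTx arrays, as did 2.94% of all genes. Its log2 difference was -0.37 ± 0.07 (limma adjusted p = 0.185).

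A second list held 34 other complement genes, of which 33 had a probe and 29 were tested; Cfd, Fcnb, Cd46 and Ptx3 were not. Of the 29, 0 passed the adjusted threshold, 5 had an unadjusted p under 0.05 (3 higher and 2 lower in Tx, beside 13.9% of all genes in either direction), and the median log2 difference was 0.12 with 21 higher. Susd4, a membrane protein with complement control repeats that inhibits convertase formation, had 1.08, 0.902, 1.02 and 1.13 in Tx, against 0.765, 0.709, 0.489 and 0.508 in nonTx. All Tx arrays lay above all nonTx arrays, a 1.70-fold difference (log2 0.76 ± 0.16, limma adjusted p = 0.220). C1qbp, a mitochondrial protein that also binds C1q, had 31.3, 33.2, 39.9 and 37.9 in Tx, against 27.8, 30.2, 29.3 and 28.2 in nonTx. Its groups did not overlap either, and the log2 difference was 0.30 ± 0.09 (limma adjusted p = 0.309).

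The 2 lower genes encode receptors for C3 fragments on leukocytes. Cr2, complement receptor 2 of B cells, had 0.326, 0.388, 0.26 and 0.272 in Tx and 0.464, 0.443, 0.358 and 0.426 in nonTx. Its log2 difference was -0.45 ± 0.15 (adjusted p = 0.319), and -0.03 ± 0.24 on its other tested probe. Of 6 B and plasma cell markers 5 were tested, 4 of them higher in Tx, with a median difference of 0.33 and summed signals of 2.58 to 3.38 in Tx and 1.77 to 2.46 in nonTx. The part of these cells in the Cr2 values was not tested. Itgam, the alpha chain of complement receptor 3, had 6.34, 24.6, 2.77 and 12.5 in Tx, against 25.7, 24.3, 27.1 and 21.8 in nonTx. Tx replicate 2 was at the nonTx level while the other 3 Tx arrays were below it. The log2 difference of Itgam was -1.52 ± 0.53 (limma adjusted p = 0.324), and -0.65 ± 0.38 on its other tested probe. That probe was well above background on 0 Tx and 3 nonTx arrays. It entered the test only through nonTx, where it was higher, so its direction is no separate evidence. Of 8 neutrophil markers 6 were tested, 4 higher and 2 lower in Tx, and the median of their log2 differences was 0.38. Their summed signals were 72.4 to 122.5 in Tx and 125.1 to 167.5 in nonTx, but most of each sum came from the probe of Csf3r, a cytokine receptor, whose difference was -0.51 ± 0.17. S100a8, S100a9 and Retnlg, which neutrophils also express strongly, differed in the other direction by 0.56 ± 0.24, 0.66 ± 0.23 and 0.90 ± 0.20. The part of these cells in the Itgam values was not tested.

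The promoter windows of 23 of the 30 listed genes were in the RefSeq table (GRCm38.p6). Each was searched on both strands for 6 motifs, chosen after the values were known. GTTAAT was found in 9 of them (39.1%), beside 7.1% of 32851 windows of all genes. Besides C8a, C8b and C4bp these were C1ra, Cfp, Hc, C7, Cd55 and Vtn, whose log2 differences ran from -0.20 to 0.23. TTCNNNGAA, the palindrome bound by STAT factors, was in 21.7% beside 8.3%, C8a and Masp2 among them, and TTNNGNAAT, a C/EBP motif, in 34.8% beside 11.5%, with C3 and Fcna among them. TATAAA was in 21.7% beside 13.6%, CCAAT in 17.4% beside 37.4%, and a repeat of AGGTCA with 1 base between the copies, an HNF4 motif, in 0 of 23 beside 0.0396%. Of the HNF1, STAT and C/EBP motifs, the windows of C8b and C4bp held only GTTAAT. The windows of all genes were not limited to 1 per gene, as those of the listed genes were, nor to genes expressed in liver. Whether other liver genes have similar shares was not tested. A match describes the letters of a window and is not a binding site shown by these data.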

How the data were processed

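Liver RNA (0.5 ug per array, per the labels' protocols) was hybridised to 1-colour Agilent arrays. Scanner output gives an intensity per spot, as deposited by the authors: background-subtracted and spatially detrended. Per the file headers the software was Feature Extraction 10.7.1.1, whereas 9.1 stands in the submitters' processing notes. A table deposited for the series repeats these intensities and adds the authors' log2 values, scaled per array and centred per probe. From the scanner files, control spots were left out and outlier spots set to missing (54 to 120 per array; 0 were saturated), spots of a probe were averaged, and each array's 75th percentile was subtracted on the log2 scale. Testing needed a signal well above background on 3 or more of the 4 arrays in either group, and left 30955 probes. Symbols were updated through Entrez IDs, and the brightest tested probe stood for its gene. The test was limma's (version 3.58.1, R 4.3.3), with a variance trend and Benjamini-Hochberg adjustment at 0.05, and the code was tested on simulated data. Complement genes, gene lists and tests were chosen with earlier results of these data known. Array values are given for genes with an unadjusted p under 0.05, for the 2 lowest p per step, and for C1q, C3 and Hc. The headers name the build mm9, so no gene coordinates are given beyond the promoter windows. Some genes of the second list are not reported here.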

Additional observations from a re-analysis of the deposited data

Results flagged for a closer look

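Of 68 groups of 4 arrays examined for complement genes, 2 had 1 array far from the other 3, where chance flags about 1 in 20. Both concern nonTx replicate 4. C1ra stood at 54.3 on that array, against 46.3 to 47.5 on the other nonTx arrays, so that the gap took a share of 0.839 of the group's range. Cfp stood at 24.8 there, against 17.5 to 18.3 on the others, with a share of 0.877. Without nonTx replicate 4 the log2 differences were -0.06 for C1ra and 0.32 for Cfp.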

How the results depend on the processing

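The count of complement genes past the threshold was 0 under each of the 21 alternatives that give a test, and likewise 0 for the other complement genes. Over all probes it was 0, and 2 with normexp, 6 with median scaling, 1 with the authors' log2 values, 1 without a variance trend, 5 with robust variance, 7 with array weights and 1 with a replicate block. It lay between 0 and 188 when 1 array was left out, the 188 without Tx replicate 2; C8b then differed by 0.81 (limma adjusted p = 0.0968). The labels give shared replicate numbers but no shared animal, litter or day, so the numbers were not taken as pairs. Same-numbered arrays did share a row of the slide. Same-numbered arrays of the 2 groups correlated between -0.01 and 0.10 in their deviations. C8b, C8a, Fcna, Mbl1, Masp2 and C3ar1 kept their direction under all 22 alternatives. C8b lay between 0.54 and 0.82 (limma adjusted p 0.0968 to 0.516) and C3ar1 between -0.64 and -0.10. Changes to the filter on dim probes, the variance settings or the replicate block leave the log2 differences of these genes as they were. Those alternatives could therefore not change a direction.

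Scaling set the small medians. The median of all genes was 0.03, 0.13 with median scaling and -0.10 with scaling to the brightest 10% of probes. These scalings shift all genes of an array alike. The complement median therefore lay 0.06 above the median of all genes each time by arithmetic. That distance was -0.02 with normexp, 0.00041 with quantile normalization and 0.0029 with no filter on dim probes. With 1 array left out that distance was 0.02 (without Tx replicate 4) to 0.12 (without nonTx replicate 4), and the complement median itself 0.04 to 0.15. With the brightest 10% the medians were -0.044 for all listed genes, 0.082 for the lectin route, -0.0081 for C3 and the alternative route, -0.030 for regulators and -0.010 for the other genes. With median scaling they were 0.32 for the lectin route, 0.20 for regulators and 0.23 for the other genes, and with quantile normalization 0.066 for the lectin and -0.0081 for the alternative route.

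Differences that turned sign were mostly near 0. With normexp they were C1qa -0.0143, C1qb -0.0109, C1qc 0.015, C1s -0.034, Cd55 -0.085 and Serping1 -0.037. With quantile normalization they were C1qa -0.0495, C1qb -0.033, C1s -0.15, C2 -0.13, Cfb -0.0081, Cfi -0.0064 and Serping1 -0.14. With the brightest 10% they were C1qa -0.093, C1qb -0.11, C1s -0.12, C2 -0.10, Cfb -0.0081, Cd55 -0.087, Cd59a -0.017, Serping1 -0.13 and Vtn -0.044. Median scaling gave C1qc 0.097, Mbl2 0.10 and C3 0.092, and array weights gave C1qc 0.065, Mbl2 0.0404 and C3 0.024. The mean of a gene's probes gave C1s -0.089, C4bp -0.057 and Cd55 -0.0396. With 1 array left out the ranges were -0.11 to 0.18 for C1qa, -0.13 to 0.15 for C1qb, -0.16 to 0.13 for C1qc, -0.043 to 0.0902 for C1s, -0.026 to 0.16 for C2, -0.26 to 0.011 for C4b, -0.0496 to 0.051 for Mbl2, -0.0598 to 0.068 for C3, -0.031 to 0.11 for Cd55 and -0.045 to 0.11 for Serping1. For scaling and array choice the cause was not tested. A block for slide or scan was not run, since the headers give 1 slide and 1 scan.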

Other observations

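Among the other complement genes, Apcs, which encodes serum amyloid P, had 29.4, 33.4, 33.4 and 54.5 in Tx, against 33.6, 28.5, 19.9 and 28.0 in nonTx. Tx replicate 4 was the highest of the 8 arrays, and the log2 difference was 0.44 ± 0.21 (limma adjusted p = 0.393). The collectin genes Colec10 and Colec11 differed by 0.18 ± 0.09 and 0.13 ± 0.09.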
